A study of Mus musculus with 17 samples.

Results

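A set of 4 microRNAs (miRNAs) that are often used as references in expression measurements, mmu-miR-191-5p, mmu-miR-425-5p, mmu-miR-103-3p and mmu-miR-107-3p (mmu marks mouse and is left out below), was followed in differentiating mouse embryonic stem cells (ESCs). They were taken by name from a table of 1033 mature miRNAs, and all 4 were among the 521 miRNAs that passed a filter on low values, a mean of at least 5 per 1000000 of a library's column total. The table holds small RNA sequencing of the ESC lines D3 and B8. Day 0 samples are undifferentiated ESCs kept without a feeder layer in medium with LIF, the cytokine that holds them pluripotent. Day 7 samples are embryoid bodies, cell aggregates formed in hanging drops, and day 21 samples are outgrowths of such bodies. Both differentiated stages grew in medium without LIF that contained RA (retinoic acid), ITS and N2 supplements. D3 is represented by 3 libraries at day 0, 2 at day 7 (replicates 2 and 3) and 3 at day 21, and B8 by 3 at day 7 and 3 at day 0. B8 at day 21 was not analysed here. Whether replicates came from different cultures is not in the labels. The p-values therefore rest on the spread among the libraries at hand, which may be technical.

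miRNAs guide silencing complexes to messenger RNAs mainly through the seed, the bases near their 5′ end. miR-191 and miR-425 are cut from neighbouring hairpins, and miR-103 and miR-107 from hairpins inside introns of pantothenate kinase genes, whose products start the synthesis of coenzyme A. In mouse liver and fat miR-103 and miR-107 are known for restraining insulin sensitivity, with caveolin among their targets, and in human cells for targeting Dicer, the enzyme that releases miRNAs from their precursors. Reference miRNAs are used to divide out differences in RNA input between samples, a use that assumes a steady level.

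The mature sequences show which of the 4 can be told apart by their reads. They are given from RefSeq (build GRCm38.p6), 5′ to 3′, with the seed (bases 2 to 8) in capitals, together with miR-16-5p, another common reference, whose seed is shifted by a base.
miR-191-5p: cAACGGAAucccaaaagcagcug
miR-425-5p: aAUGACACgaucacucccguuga
miR-103-3p: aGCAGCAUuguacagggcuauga
miR-107-3p: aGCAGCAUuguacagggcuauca
miR-16-5p: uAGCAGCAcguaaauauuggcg
miR-191-5p and miR-425-5p share no seed with each other or with the others. miR-103-3p and miR-107-3p share their seed and differ over 23 bases by G22C alone, counted from the 5′ end with the base of miR-103-3p first. The rule for counting reads that match both is not stated, so the split of reads between these 2 entries is uncertain. The letters AGCAGC start at base 1 in miR-103-3p and miR-107-3p and at base 2 in miR-16-5p and the other 5 listed relatives of the miR-15 and miR-16 group.

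miR-191-5p lies at chr9:108568325-108568347 and miR-425-5p at chr9:108568789-108568811, both on the plus strand. Their hairpins are 384 bases apart, inside an annotated exon of the long noncoding RNA 4833445I07Rik. miR-103-3p comes from hairpins at 2 loci, Mir103-2 in an intron of Pank2 (mature part chr2:131288103-131288125, plus strand) and Mir103-1 in an intron of Pank3 (chr11:35782447-35782469, plus strand). miR-107-3p lies in an intron of Pank1 at chr19:34820700-34820722 on the minus strand. The 3 hairpins are shown because they differ outside the mature part, which is in capitals and is the sequence of the entries miR-103-3p and miR-107-3p.
Mir103-1: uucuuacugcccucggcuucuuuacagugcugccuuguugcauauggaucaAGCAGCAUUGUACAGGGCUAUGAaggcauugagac
Mir103-2: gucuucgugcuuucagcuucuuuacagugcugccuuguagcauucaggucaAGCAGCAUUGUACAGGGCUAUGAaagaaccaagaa
Mir107: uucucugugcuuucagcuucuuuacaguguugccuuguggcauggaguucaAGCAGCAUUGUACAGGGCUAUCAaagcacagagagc

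D3 libraries held 56377 to 129486 recovered miRNA reads at day 0, 1008438 to 1060306 at day 7 and 547213 to 743039 at day 21, and B8 libraries 141823 to 256613 at day 7 and 138397 to 275271 at day 0. ESC identity was checked with 5 miRNAs of the miR-290 and miR-302 clusters, all 5 of them in the table. Their sum was 8.42% to 10.7% of the column total in undifferentiated D3, 0.296% to 0.322% at day 7 and 0.551% to 0.606% at day 21 of that line, and 0.881% to 2.75% in day 7 B8, against 10.2% to 12.6% in undifferentiated B8. A list of 3 neural miRNAs summed to 0.00906% to 0.0337% (day 0), 1.31% to 1.37% (day 7) and 0.625% to 0.753% (day 21) in D3, and to 1.11% to 1.2% (day 7), against 0.0214% to 0.0260% (day 0), in B8. Muscle miRNAs (3) reached 0.122% to 0.339% and mesenchymal ones (2) 3.75% to 4.8% in day 21 D3, against at most 0.00165% and 0.231% in undifferentiated D3. In B8 the mesenchymal pair went the other way, with 0.274% to 0.781% at day 7, against 1.28% to 1.48% at day 0. Of the 3 blood miRNAs, miR-451a and miR-223-3p were at 0 in every day 0 library and in day 7 D3. The third, miR-142a-3p, thus made up all of the blood sum of undifferentiated B8, 0.0222% to 0.0258%, where each other group had at most 0.00347%. The part of cell composition in the results below was not tested, and in such bulk samples fewer cells of a type and less RNA per cell cannot be told apart.

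The deposited values share no common total: column totals differed 17.7-fold between libraries, and how the deposited factors were set is not given in the sources used here. The median log2 difference over the 521 miRNAs was 2.25 between D3 at day 7 and day 0, 1.69 between D3 at day 21 and day 0, -0.60 between D3 at day 21 and day 7, and -0.21 between B8 at day 7 and day 0. It was -0.90 for D3 against B8 at day 0 and 1.71 at day 7. The calls of the 4 miRNAs and the SDs of their group means are therefore given on the deposited scale and under 4 other scalings. These are equal column totals, equal totals of all miRNAs but the abundant pair miR-10a and miR-10b (below, equal totals without the miR-10 pair), median-of-ratios, and TMM (trimmed mean of M-values) recomputed over the miRNA entries. Without the miR-10 pair the factors that divide the D3 day 7 libraries fell from 4.84 and 4.20 to 2.16 and 2.09. Equal totals and shares of the column total thus depend strongly on that pair in D3 at day 7. Listed references, relatives and other strands are given as deposited and under median-of-ratios only, and nearest patterns and overlap of libraries as deposited only. Median-of-ratios makes the typical miRNA equal between libraries over the 319 miRNAs above 0 in all of them. Under it the same medians over the 521 lay between -0.13 and 0.43, so the typical tested miRNA was not made equal in every comparison.

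miR-191-5p was the most abundant of the 4 in every group. In D3 its deposited values were 1299.5, 1497 and 1062 at day 0, 3984 and 4007 at day 7, and 2759.95, 3016 and 3656 at day 21. In B8 they were 3132, 1722 and 3785 at day 7, against 4171, 3683 and 2677 at day 0. All libraries of D3 at days 7 and 21 lay above those of D3 at day 0, whereas the B8 groups overlapped, with B8 day 7 replicate 2 the lowest of that line. The D3 means were 1286 ± 218 (SD, n = 3) at day 0, 3996 ± 16.3 (n = 2) at day 7 and 3144 ± 461 (n = 3) at day 21, and the B8 means 2879.6 ± 1054 (n = 3) at day 7 and 3510.1 ± 762 (n = 3) at day 0. As a share of the column total D3 had 2.16% ± 0.0975 at day 0, 0.517% ± 0.0533 at day 7 and 1.40% ± 0.114 at day 21, and B8 had 1.61% ± 0.379 at day 7 and 2.48% ± 0.242 at day 0. The deposited value was thus highest, and the share lowest, in the same group, D3 at day 7.

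On the log2(value + 0.48) scale and as deposited, miR-191-5p was higher in D3 at day 7 than at day 0 by 1.65 (SE 0.29, 95% interval 1.04 to 2.26, limma adjusted p = 2.03e-05) and at day 21 than at day 0 by 1.29 (SE 0.26, adjusted p = 0.000104). Both differences are smaller than the median shift of all miRNAs. At day 7 against day 0 of D3 the difference was -0.65 (95% interval -1.13 to -0.17, adjusted p = 0.0191) under median-of-ratios and -2.06 (adjusted p = 6.29e-08) under equal totals, so that it was called lower under all 4 other scalings and higher on the deposited scale alone. In B8 at day 7 against day 0 it did not pass the threshold as deposited (-0.34, 95% interval -0.88 to 0.21, adjusted p = 0.294) or under 3 of the other scalings, and it was called lower with equal totals (-0.65, adjusted p = 0.00398).

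miR-425-5p, from the same genomic cluster, was far less abundant. The D3 values were 68.8, 81.9 and 56.6 at day 0, 124 and 120.2 at day 7, and 97.6, 112 and 164 at day 21. The B8 values were 62.7, 51.5 and 65.9 at day 7, against 193, 181 and 158 at day 0. The 2 B8 groups lay well apart, and the libraries of D3 at day 21 straddled those at day 7. These values rest on 68 to 152 reads (day 0), 158 to 168 (day 7) and 294 to 412 (day 21) in D3, and on 48 to 92 (day 7) and 183 to 347 (day 0) in B8.

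The fall of miR-425-5p in B8 was a difference that held its direction and its call under all 5 scalings. It was -1.56 (SE 0.25, 95% interval -2.07 to -1.05, limma adjusted p = 1.03e-05) as deposited, a 2.95-fold lower level at day 7, and ran from -1.87 to -1.05 over the scalings. Its share of the column total was 0.0346% ± 0.00112 in B8 at day 7 and 0.127% ± 0.00492 in B8 at day 0 (SD, n = 3 each). In D3 it was higher at day 7 than at day 0 by 0.83 as deposited (adjusted p = 0.00924) and lower by all 4 other scalings, with -1.46 (95% interval -1.85 to -1.07, adjusted p = 2.72e-06) under median-of-ratios. Without D3 day 7 replicate 2, which leaves 1 library in that group, the deposited difference was 0.81. At day 21 against day 0 the difference was 0.83 as deposited (adjusted p = 0.00456) and -0.74 under median-of-ratios (adjusted p = 0.000813).

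In D3, miR-103-3p had deposited values of 166, 238 and 155 at day 0, 2956 and 2895 at day 7, and 1314, 1463 and 1940.1 at day 21. In B8 it had 699, 988 and 707 at day 7, against 361, 406 and 323 at day 0. No differentiated library reached down to the day 0 libraries of its line. Its share of the D3 column total was 0.312% ± 0.0413 at day 0, 0.379% ± 0.0319 at day 7 and 0.693% ± 0.0283 at day 21, and its share of the B8 total 0.477% ± 0.183 at day 7 and 0.260% ± 0.0215 at day 0 (SD, n = 2 in day 7 D3 and 3 in the other groups).

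miR-107-3p showed the same order of groups as miR-103-3p with D3 at day 7 highest. The D3 values were 24.3, 31.3 and 30.8 at day 0, 628 and 628 at day 7, and 398, 479.9 and 627 at day 21, on 37 to 58, 802 to 878 and 1199 to 1627 reads. The B8 values were 152, 183 and 148 at day 7, against 81.8, 97.8 and 65.7 at day 0. The differentiated groups again lay above day 0 of their line without overlap, and the highest library of D3 at day 21 came within 1 unit of those at day 7.

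Both PANK-hosted miRNAs rose with differentiation in both lines. As deposited, miR-103-3p was higher by 4.0 (SE 0.26, limma adjusted p = 7.32e-13) in D3 at day 7 than at day 0, by 3.08 (SE 0.23, adjusted p = 1.45e-11) in D3 at day 21 than at day 0 and by 1.12 (SE 0.23, adjusted p = 0.000254) in B8 at day 7 than at day 0. The differences of miR-107-3p were 4.43 (SE 0.27, adjusted p = 1.82e-13), 4.08 (SE 0.24, adjusted p = 9.97e-14) and 0.99 (SE 0.24, adjusted p = 0.00121) in the same comparisons, of which the D3 pair share their day 0 libraries. Under median-of-ratios the D3 differences were smaller, at 1.70 and 1.52 for miR-103-3p and 2.15 and 2.53 for miR-107-3p, with adjusted p of at most 1.35e-06. miR-107-3p was called higher under all 5 scalings in each of these comparisons. miR-103-3p was called higher under all 5 in D3 at day 21 and B8 at day 7, and under 4 of 5 in D3 at day 7, where equal totals gave 0.29 (95% interval -0.21 to 0.78, adjusted p = 0.288).

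**Figure D1:**
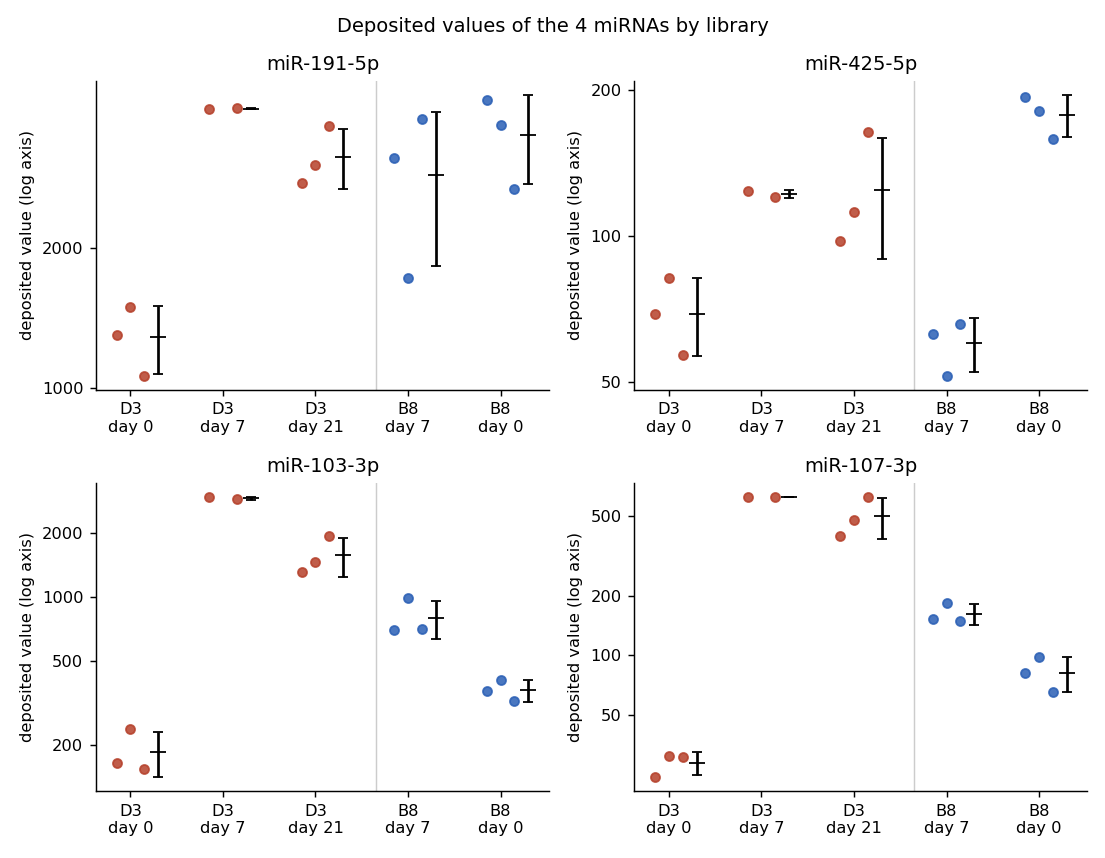
Deposited values (log axis) of the 4 miRNAs in each library, by group of line and day, with the group mean and SD (n = 2 in day 7 D3 and 3 in the other groups). miR-103-3p and miR-107-3p are lowest in D3 at day 0, with means of 186 and 28.8, and highest in D3 at day 7, with means of 2926 and 628; miR-425-5p in B8 averages 60.0 at day 7 and 177 at day 0.

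Counted over the 4 miRNAs on the deposited scale, 4 were called higher in D3 at day 7 than at day 0, where 77.4% of the 521 miRNAs were called, and 4 in D3 at day 21 than at day 0 (75.4% of all). In B8 at day 7 against day 0, 2 were higher and 1 lower (49.9% of all). Only miR-103-3p was called in D3 at day 21 against day 7, lower by 0.92 (limma adjusted p = 0.00695; 39.5% of all). Without D3 day 7 replicate 2, which leaves 1 library in that group, the difference was -0.90. For D3 against B8, 4 were lower at day 0 (47% of all) and 3 higher at day 7 (75.2% of all), and the moderated F test over the 5 groups called all 4 (91% of all). Each count lies beside a background in which a large part of the table was called, so the counts are no result about these 4 as a set. Library values did not overlap between the groups for all 4 in D3 at day 7 against day 0 (82.7% of the 521), in D3 at day 21 against day 0 (79.3%) and between the lines at day 0 (53.6%) and day 7 (79.1%). They did not overlap for 3 of 4 in B8 at day 7 against day 0 (54.9%) and in D3 at day 21 against day 7 (65.6%).

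Under median-of-ratios, miR-103-3p and miR-107-3p were called higher and the other 2 lower in D3 at day 7 against day 0 (63% of all). At day 21 against day 0 the first 2 were higher and miR-425-5p lower (63% of all), as in B8 at day 7 against day 0 (52.6% of all). In D3, miR-425-5p was higher at day 21 than at day 7 by 0.72 (limma adjusted p = 0.00746; 26.5% of all). The moderated F test called all 4 (80.8% of all, and 82.3% with equal totals). With equal totals the number called was 3 in D3 at day 7 against day 0 (65.8% of all), 4 at day 21 against day 0 (64.3% of all), 4 in B8 at day 7 against day 0 (53.9% of all) and 4, all higher, at day 21 against day 7 of D3 (40.1% of all).

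The other scalings were counted in the same way. With equal totals without the miR-10 pair, 2 were higher and 2 lower in D3 at day 7 (62.2% of all) and at day 21 (63.5%) against day 0, 2 higher and 1 lower in B8 at day 7 against day 0 (51.1%), and none was called at day 21 against day 7 of D3 (25.7%). Under TMM, 2 were higher and 2 lower in D3 at day 7 (61%), 2 higher and 1 lower in D3 at day 21 (62.8%) and in B8 at day 7 (52.4%), each against day 0, and miR-425-5p alone was called, higher, at day 21 against day 7 of D3 (27.1%). Between the lines, neither scaling called any of the 4 at day 0 (22.3% of all in each). At day 7 the first called miR-191-5p (38.8%) and TMM called miR-191-5p and miR-425-5p (37.8%), all lower in D3. The F test called all 4 under both (80.2% and 79.3% of all).

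Between the undifferentiated lines the 4 were called on the deposited scale alone. As deposited, the day 0 differences of D3 minus B8 were -1.44 for miR-191-5p, -1.36 for miR-425-5p, -0.98 for miR-103-3p and -1.48 for miR-107-3p, with limma adjusted p of at most 0.00115. Under median-of-ratios none was called (23.4% of all): they were -0.38 (95% interval -0.81 to 0.04), -0.31 (-0.66 to 0.03), 0.07 (-0.31 to 0.45) and -0.44 (-0.88 to 0.00) in the same order, with adjusted p of 0.207, 0.202, 0.819 and 0.159. The unadjusted p was under 0.05 for none of them. Equal totals also called none (21.7% of all). Lack of a call does not show equal levels, and differences up to the bounds given lie within the intervals.

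At day 7 the order of the lines depended on the scaling. As deposited, D3 was higher than B8 by 1.03 for miR-425-5p, 1.89 for miR-103-3p and 1.97 for miR-107-3p (limma adjusted p of at most 0.00210), with 0.55 for miR-191-5p (adjusted p = 0.0942). Without B8 day 7 replicate 3 miR-191-5p was called as well (0.78, adjusted p = 0.0223). Under median-of-ratios miR-191-5p was lower in D3 by 0.93 (difference -0.93, 95% interval -1.40 to -0.45, adjusted p = 0.00371) and was the only one of the 4 called (40.7% of all). Equal totals called miR-191-5p and miR-425-5p lower in D3 (31.3% of all).

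The change from day 0 to day 7 was also compared between the lines, as D3 minus B8. On the deposited scale all 4 were higher in D3, by 1.99 for miR-191-5p, 2.39 for miR-425-5p, 2.87 for miR-103-3p and 3.45 for miR-107-3p (limma adjusted p of at most 9.02e-05; 74.3% of all called), beside a median of 2.64 over the 521. Under median-of-ratios miR-107-3p alone was called (0.93, 95% interval 0.27 to 1.59, adjusted p = 0.0269; 32.6% of all). Under TMM it was again the only one (31.9% of all). With equal totals miR-191-5p and miR-425-5p were called with a lower change in D3 (30.5% of all), and with equal totals without the miR-10 pair miR-191-5p was (30.9% of all).

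**Figure D2:**
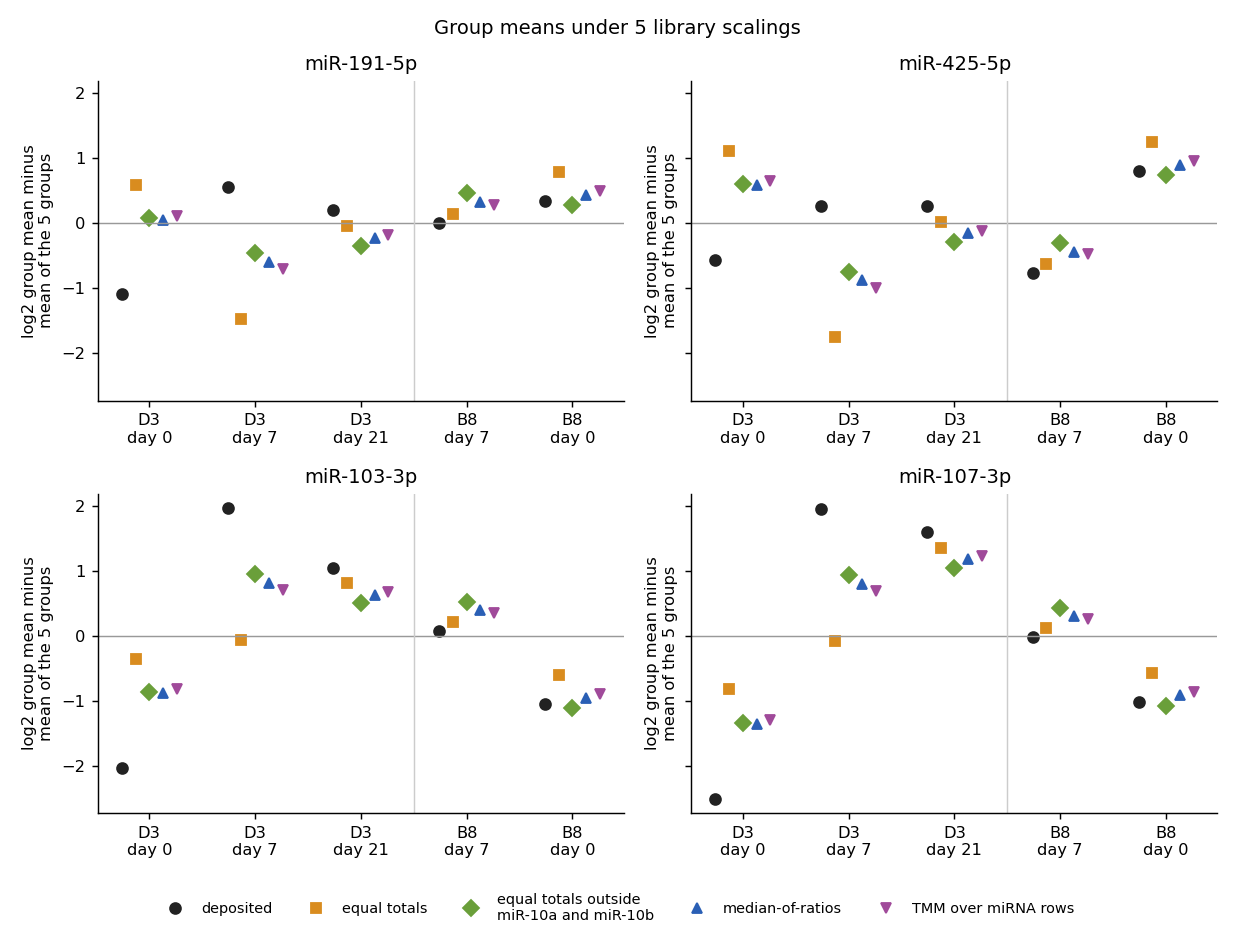
Group means of log2 values under 5 library scalings, each centred on the mean of the 5 groups, for the 4 miRNAs. For miR-103-3p and miR-107-3p the day 0 groups lie below the centre line under each scaling; for miR-191-5p and miR-425-5p D3 at day 7 lies above the line on the deposited scale and below it under the 4 others, between which miR-191-5p differs from D3 at day 0 by -2.06 to -0.53.

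**Figure D3:**
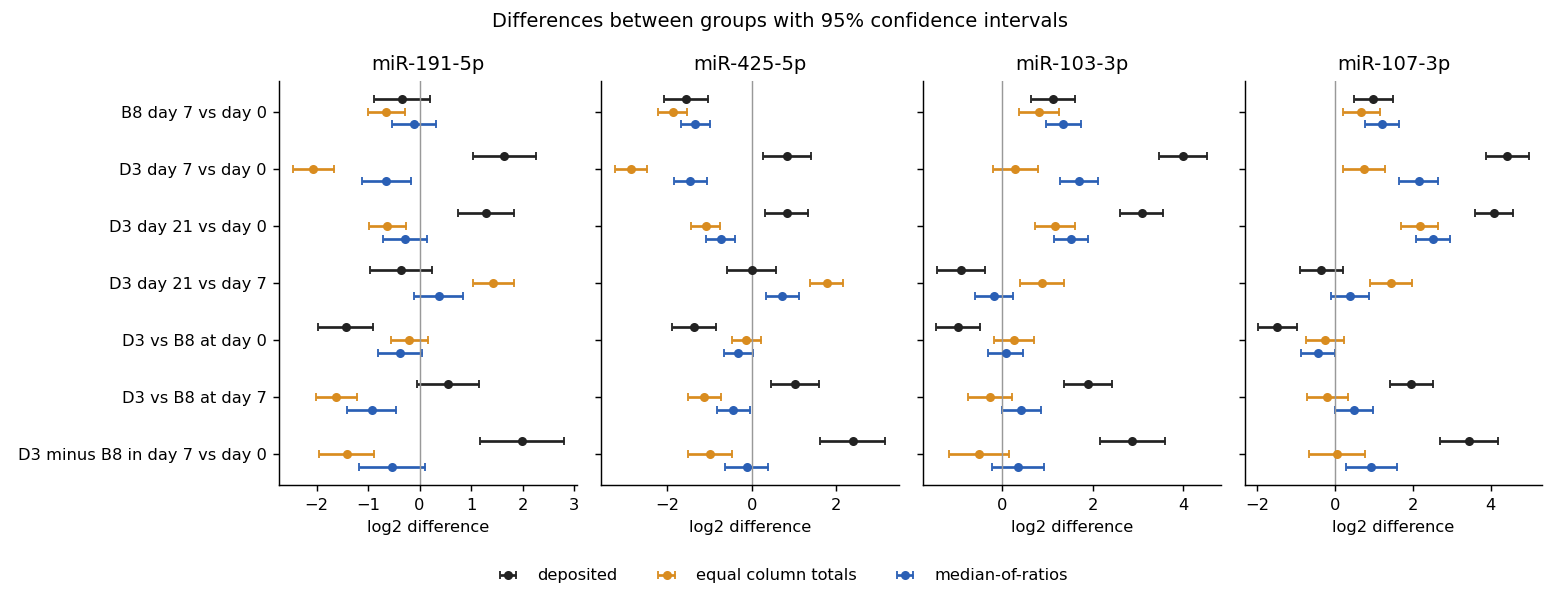
Log2 differences (x axis) of the 4 miRNAs in the 7 comparisons, with 95% confidence intervals from limma, on the deposited scale, with equal column totals and under median-of-ratios. The interval of miR-425-5p in B8 at day 7 against day 0 lies below 0 under all 3, at -1.56 as deposited, and those of miR-107-3p at day 7 and at day 21 against day 0 of D3 lie above 0 under all 3.

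Ratios between 2 miRNAs of a library do not depend on its scaling, save for the pseudocount in the test, so they were tested for all 6 pairs, each as 1 of 520 ratios to the same miRNA with p-values adjusted over them. The ratio of miR-425-5p to miR-191-5p, the products of 1 genomic cluster, was 0.0530, 0.0547 and 0.0533 at day 0, 0.0311 and 0.0300 at day 7, and 0.0354, 0.0372 and 0.0448 at day 21 of D3. In B8 it was 0.0200, 0.0299 and 0.0174 at day 7, against 0.0463, 0.0491 and 0.0591 at day 0. Day 0 of both lines lay above day 7 without overlap. On the log2 scale the ratio was lower by 1.22 in B8 (difference -1.22, SE 0.27, limma adjusted p = 0.000808) and by 0.82 in D3 (difference -0.82, SE 0.30, adjusted p = 0.0257) at day 7 than at day 0. The D3 call was lost without D3 day 0 replicate 2 (adjusted p = 0.0587) or replicate 3 (adjusted p = 0.0501). Fits without D3 day 7 replicate 2 or replicate 3 leave 1 library in that group, and the differences there were -0.84 and -0.79.

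The ratio of miR-107-3p to miR-103-3p, which share a seed, was 0.146, 0.132 and 0.199 at day 0, 0.212 and 0.217 at day 7, and 0.303, 0.328 and 0.323 at day 21 of D3. In B8 it was 0.217, 0.186 and 0.210 at day 7, against 0.227, 0.241 and 0.203 at day 0. Day 21 D3 stood above every other library. The ratio was 2.0-fold higher in D3 at day 21 than at day 0 (log2 1.0, SE 0.20, limma adjusted p = 0.000196), and in B8 at day 7 against day 0 the difference was -0.13 (95% interval -0.56 to 0.29, adjusted p = 0.579). At day 7 against day 0 of D3 it was 0.44 (adjusted p = 0.0869), and it was called without D3 day 0 replicate 3 (0.61, adjusted p = 0.0269). The uncertain split of reads between the 2 entries touches this ratio directly, and its part was not tested.

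In D3 at days 7 and 21 against day 0, ratios across the 2 pairs moved more than the 2 ratios above. In B8 at day 7 those of miR-191-5p to miR-103-3p and miR-107-3p moved by -1.46 and -1.32, near the -1.22 of miR-425-5p to miR-191-5p. Those of miR-425-5p to the same 2 moved by -2.68 and -2.55. miR-191-5p over miR-103-3p was 7.82, 6.30 and 6.85 at day 0, 1.35 and 1.38 at day 7, and 2.10, 2.06 and 1.88 at day 21 of D3. In B8 it was 4.48, 1.74 and 5.36 at day 7, against 11.6, 9.08 and 8.28 at day 0. Each differentiated library lay below the day 0 libraries of its line, and B8 day 7 replicate 2 lay near the D3 libraries of days 7 and 21. The log2 difference was -2.35 (SE 0.34, limma adjusted p = 5.27e-06) in D3 at day 7, -1.79 (SE 0.31, adjusted p = 3.41e-05) in D3 at day 21 and -1.46 (SE 0.31, adjusted p = 0.000358) in B8 at day 7, each against day 0 of the line. Without B8 day 7 replicate 2 the last was -0.96 (adjusted p = 9.04e-05).

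miR-425-5p over miR-107-3p was 2.83, 2.62 and 1.84 at day 0, 0.197 and 0.191 at day 7, and 0.245, 0.234 and 0.261 at day 21 of D3. In B8 it was 0.412, 0.280 and 0.444 at day 7, against 2.36, 1.85 and 2.41 at day 0. In ESCs of both lines miR-425-5p thus had more reads than miR-107-3p, and in every differentiated library it had fewer. The ratio was 12.1-fold lower in D3 at day 7 (log2 -3.60, limma adjusted p = 1.19e-10), 9.57-fold lower in D3 at day 21 (log2 -3.26, adjusted p = 7.64e-11) and 5.84-fold lower in B8 at day 7 (log2 -2.55, adjusted p = 9.62e-09), each against day 0 of the line.

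The 6 pairs rest on 4 values in a library and are not independent, so counts of them are no result about the pairs. Of the 6 pairs, 5 were called in B8 at day 7 against day 0, 5 in D3 at day 7 against day 0 and 5 in D3 at day 21 against day 0. The shares of all ratios called in these comparisons were 45.6%, 58.3% and 56.5% with miR-191-5p as divisor, 65.4%, 76.2% and 71.9% with miR-103-3p, and 62.9%, 79.6% and 82.9% with miR-107-3p. For D3 at day 21 against day 7, 1 pair was called, miR-425-5p over miR-103-3p (0.91, limma adjusted p = 0.0124, beside 26.3% of ratios to miR-103-3p). Its difference was 0.92 and 0.90 without D3 day 7 replicate 2 and replicate 3, fits that leave 1 library in that group. Between the lines, none was called at day 0, where 20.6%, 19.8% and 29.6% of ratios to miR-191-5p, miR-103-3p and miR-107-3p were, and 1 pair passed before adjustment for multiple tests. It was miR-107-3p over miR-103-3p (-0.50, limma adjusted p = 0.0889), which was called without D3 day 0 replicate 3 (-0.67, adjusted p = 0.0451). At day 7, 4 pairs were called, those that set miR-191-5p or miR-425-5p over miR-103-3p or miR-107-3p, all lower in D3 (59.4%, 35.2% and 36.7% of ratios to miR-191-5p, miR-103-3p and miR-107-3p). The 2 with miR-425-5p had differences of -0.96 to -0.86 without a D3 day 7 library, which leaves 1 library in that group. miR-425-5p over miR-191-5p was called without B8 day 7 replicate 2 (0.70, adjusted p = 0.0145).

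**Figure D4:**
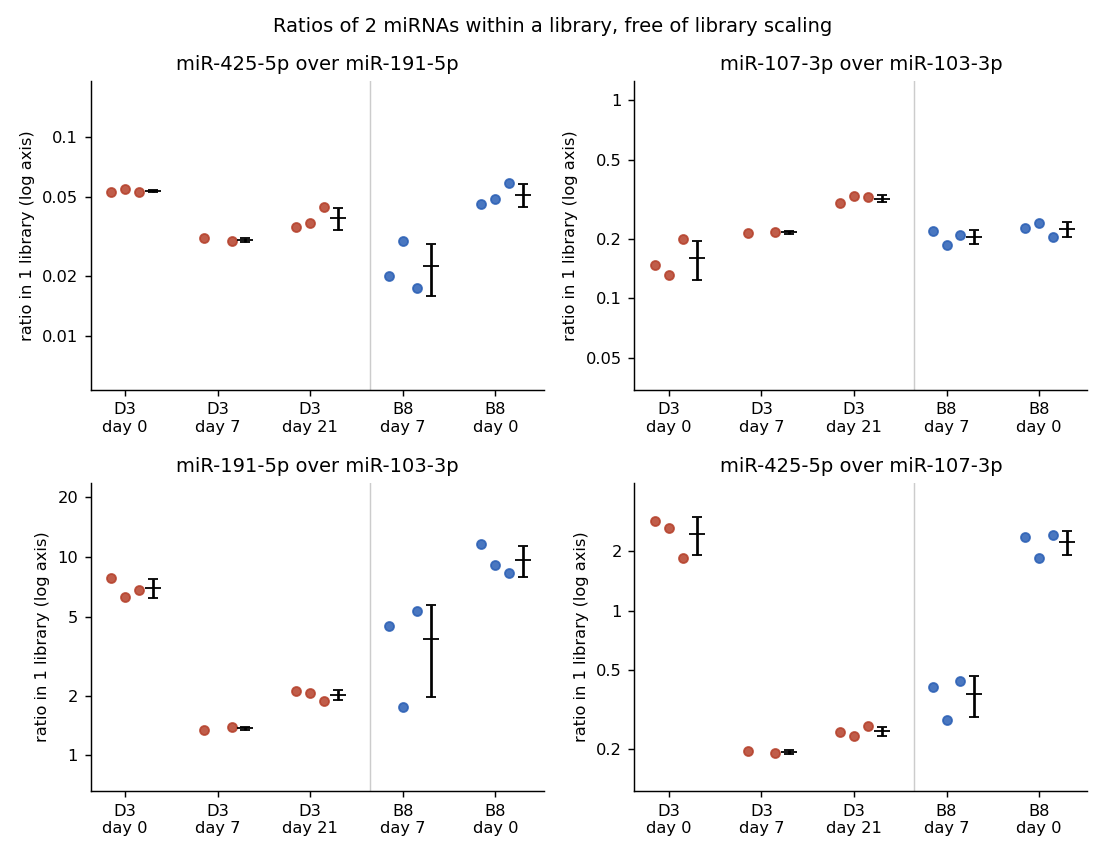
Ratios of 2 of the miRNAs within a library (log axis, each panel spanning the same number of log units), with group means and SD (n = 2 in day 7 D3 and 3 in the other groups). miR-191-5p over miR-103-3p averages 6.99 at day 0, 1.37 at day 7 and 2.02 at day 21 of D3, and 3.86 at day 7 and 9.64 at day 0 of B8, while miR-107-3p over miR-103-3p stays between 0.132 and 0.328.

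Stability was described by the SD of the 5 group means of log2 values, a smaller SD meaning a steadier level, and by its rank among the 521 miRNAs. For miR-191-5p the SD was 0.645 (rank 35) as deposited, 0.889 (rank 161) with equal totals, 0.398 (rank 27) with equal totals without the miR-10 pair, 0.420 (rank 38) under median-of-ratios and 0.466 (rank 51) under TMM. For miR-425-5p it was 0.647 (rank 36), 1.25 (rank 265), 0.640 (rank 109), 0.729 (rank 140) and 0.795 (rank 161) in the same order. miR-191-5p was thus the steadiest of the 4 under all scalings except equal totals, where miR-103-3p and miR-107-3p had smaller SDs.

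For miR-103-3p the SD was 1.60 (rank 353) as deposited, 0.546 (rank 50) with equal totals, 0.923 (rank 209) with equal totals without the miR-10 pair, 0.853 (rank 186) under median-of-ratios and 0.801 (rank 163) under TMM. For miR-107-3p it was 1.84 (rank 404), 0.845 (rank 141), 1.13 (rank 263), 1.09 (rank 252) and 1.05 (rank 243) in the same order. The median SD of all 521 was 1.29, 1.24, 1.11, 1.12 and 1.14. miR-107-3p therefore lay near the middle of the table under 3 of the scalings and in its less steady part as deposited. The spread between replicates, as the pooled SD within groups under median-of-ratios, was 0.273 for miR-191-5p, 0.123 for miR-425-5p, 0.221 for miR-103-3p and 0.256 for miR-107-3p, each smaller than the SD between groups.

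**Figure D5:**
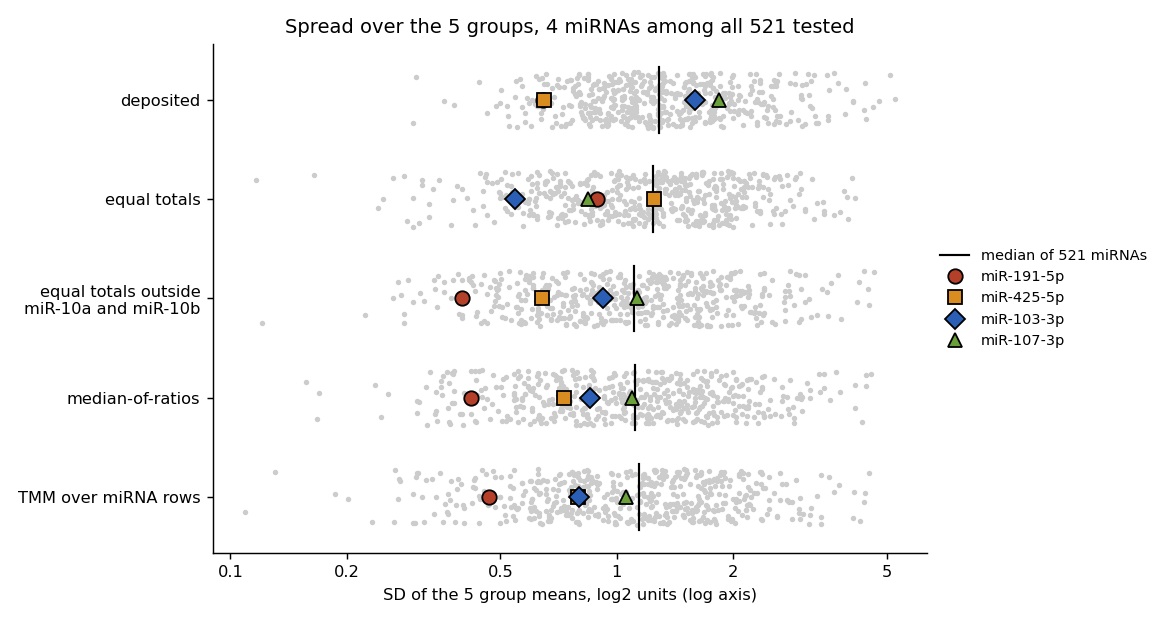
SD of the 5 group means in log2 units (log axis) for all 521 miRNAs (grey points, spread vertically at random) and the 4 miRNAs, under 5 scalings, with the median of the 521 as a bar. miR-191-5p and miR-425-5p coincide at 0.645 and 0.647 on the deposited scale, so only the square is seen there, and miR-107-3p lies furthest right of the 4 under every scaling but equal totals.

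A measure that needs no scaling, the geNorm M value, is the mean SD over the 14 libraries of a miRNA's log2 ratio to each other miRNA. Over the 319 miRNAs above 0 in all libraries it was 1.26 (rank 25) for miR-191-5p, 1.33 (rank 54) for miR-425-5p, 1.39 (rank 98) for miR-103-3p and 1.52 (rank 149) for miR-107-3p, with a median of 1.55. The order of the 4 is the order they had under median-of-ratios. miR-16-5p, a broadly expressed miRNA that restrains the cell cycle, had an M value of 1.2 (rank 4), and let-7a-5p, which accumulates as cells differentiate, 2.31 (rank 293).

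The pairwise ratios can be read in the same way. Over the 14 libraries the SD of the log2 ratio was 0.379 for miR-107-3p over miR-103-3p and 0.546 for miR-425-5p over miR-191-5p, and 0.459% and 2.36% of the 50721 pairs among the 319 miRNAs had a smaller one. It was 1.12 for miR-191-5p over miR-103-3p, 1.32 for miR-191-5p over miR-107-3p, 1.44 for miR-425-5p over miR-103-3p and 1.62 for miR-425-5p over miR-107-3p, beside a median of 1.5 over all pairs. The points of these SDs share libraries, and those of miR-103-3p and miR-107-3p may also share reads.

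The choice of divisor decided how the rest of the table appeared. Dividing by a miRNA lowers every log2 difference by that miRNA's own difference. The balance of higher and lower calls below thus largely restates the differences given above. With every value divided by miR-191-5p, 303 of 520 miRNAs were called in D3 at day 7 against day 0, 200 of them higher, and 136 were higher and 101 lower in B8 at day 7 than at day 0. Divided by miR-425-5p, the numbers were 283 higher and 68 lower in D3 and 309 higher and 43 lower in B8. Divided by miR-103-3p, they turned to 69 higher and 327 lower in D3 and 47 higher and 293 lower in B8. Divided by miR-107-3p, 55 were higher and 359 lower in D3, and 53 higher and 274 lower in B8. At day 7 against day 0, most calls in both lines were thus to higher values with a member of the miR-191 cluster as divisor and to lower values with a PANK-hosted one. The other contrasts did not all share that pattern. For D3 at day 21 against day 7, 45 were higher and 75 lower divided by miR-191-5p, 43 higher and 168 lower divided by miR-425-5p, and 105 higher and 32 lower divided by miR-103-3p. With miR-107-3p as divisor, 50 were higher and 97 lower in that contrast, and 110 were higher and 44 lower in D3 than in B8 at day 0.

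Among 12 other miRNAs often used as references, all 12 were called higher in D3 at day 7 and all 12 at day 21 than at day 0 on the deposited scale, with median differences of 2.90 and 1.99 beside the 2.25 and 1.69 of all miRNAs, of which 77.4% and 75.4% were called. Of the 12, 2 were called higher in B8 at day 7 than at day 0 (49.9% of all called), among them let-7a-5p (1.33, limma adjusted p = 2.22e-05). Under median-of-ratios 9 were called higher in D3 at day 7 (63% of all called), 5 higher and 1 lower in D3 at day 21 (63% of all) and 9 higher in B8 at day 7 (52.6% of all), each against day 0 of the line. These counts under median-of-ratios lie on both sides of the share of all miRNAs, so they are no result about the 12 as a set. miR-16-5p differed by 0.54 (adjusted p = 0.0107) in D3 at day 7, by 0.17 (adjusted p = 0.343) in D3 at day 21 and by 0.47 (adjusted p = 0.0144) in B8 at day 7, each against day 0 under median-of-ratios. Its SD of group means there was 0.257 (rank 6), against 0.420 for miR-191-5p. The 5 miRNAs above the median level with the smallest SD of group means under median-of-ratios were miR-28a-5p (0.157), miR-130a-3p (0.167), miR-374b-5p (0.169), miR-674-3p (0.246) and miR-16-5p (0.257). That choice rests on the same values, so it describes these libraries only. Of these 5, miR-374b-5p had an SD within groups of 0.497, larger than its SD of group means, and the others had 0.146 to 0.173.

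The other comparisons of the 12 went as follows on the deposited scale: 6 were lower in D3 at day 21 than at day 7 (39.5% of all called), 11 were lower in D3 than in B8 at day 0 (47% of all), and 11 were higher in D3 than in B8 at day 7 (75.2% of all). Under median-of-ratios, 2 were higher and 3 lower in D3 at day 21 than at day 7 (26.5% of all). Between the lines under that scaling, 4 were lower in D3 at day 0 (23.4% of all), and 1 was higher and 3 lower at day 7 (40.7% of all). Of the 6 relatives with the offset seed (miR-15a-5p, miR-15b-5p, miR-16-5p, miR-195a-5p, miR-322-5p and miR-497a-5p), 4 were called higher in D3 at day 7 (77.4% of all called) and 4 at day 21 (75.4% of all) than at day 0, and 1 higher and 2 lower in B8 at day 7 than at day 0 (49.9% of all), on the deposited scale. Under median-of-ratios, 4 were higher and 2 lower in D3 at day 7 (63% of all), 1 higher and 2 lower in D3 at day 21 (63% of all), and 2 higher and 2 lower in B8 at day 7 (52.6% of all), each against day 0. They did not share a direction as miR-103-3p and miR-107-3p did. miR-322-5p, from an X-linked cluster, was higher by 3.54 in D3 at day 7 (adjusted p = 9.29e-10) and by 3.43 in B8 at day 7 (adjusted p = 6.31e-10) than at day 0 under that scaling.

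Patterns most like those of the 4 were sought among the miRNAs above the median level, by the root mean square difference of centred log2 group means over the 5 groups on the deposited scale. For miR-191-5p they were miR-34a-5p (0.141), miR-429-3p (0.242) and miR-200a-5p (0.250). For miR-425-5p they were miR-181c-5p (0.124), miR-101a-3p (0.373) and miR-18a-3p (0.379), so that only the first was close. For miR-103-3p they were miR-671-3p (0.155), miR-1839-5p (0.209) and miR-342-3p (0.229), and for miR-107-3p miR-26a-5p (0.201), miR-30c-5p (0.233) and miR-1839-5p (0.239). Between miR-103-3p and miR-107-3p the same difference was 0.322, and between miR-191-5p and miR-425-5p it was 0.482, so neither was among the other's closest 3. The largest among the 4 was 1.56, between miR-425-5p and miR-107-3p.

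The other strand of each hairpin was nearly absent. Summed over the 14 libraries, miR-191-3p had 62 reads beside 71693 of miR-191-5p (0.0864% of their sum, exact 95% interval 0.0663% to 0.111%) and miR-425-3p had 40 beside 2824 of miR-425-5p (1.40%, interval 1.0% to 1.90%). The 2 other strands of the miR-103 hairpins together had 4 reads beside 27454 of miR-103-3p (0.0146%, interval 0.00397% to 0.0373%), and miR-107-5p had 10 beside 7246 of miR-107-3p (0.138%, interval 0.0661% to 0.253%). PCR copies make reads depart from independent molecules, so the intervals hold counting error alone. Of the 5 other strands, miR-191-3p and miR-425-3p passed the filter on low values. miR-425-3p, with 0 to 1 reads a library in B8 at day 7 against 2 to 6 in B8 at day 0, was called lower there on the deposited scale (-1.96, limma adjusted p = 0.0105), which is the direction of miR-425-5p. That call held under median-of-ratios (-2.14, adjusted p = 0.0240). As deposited, miR-191-3p was called higher in D3 at day 7 (1.71, adjusted p = 0.0252) and miR-425-3p at day 21 (1.59, adjusted p = 0.0238) than at day 0. miR-425-3p was also called higher in D3 than in B8 at day 7 and in the difference of changes. None of these 4 calls of higher values held under median-of-ratios, where the moderated F test did not call miR-425-3p (adjusted p = 0.0932).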

How the data were processed

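The table gives signal per mature miRNA as deposited, which its title calls TMM-normalized. How the authors set the library factors is not given in the sources used here. Per the submitters' processing notes the software included CASAVA, FastQC, Partek and Bowtie, on genome mm10, and column titles add cutadapt and a length step. Values of up to 1000 reads came out whole within 0.01 read in 100% of cases, so reads could be recovered. Of 17 labelled samples in 6 groups, 14 in 5 groups were analysed, and 4 of 11 planned comparisons, those with B8 at day 21, were not made.

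Tests used log2(value + pseudocount), with a pseudocount of 2 per 1000000 of the mean column total, on 521 of 1033 miRNAs. The pseudocount was 0.48 on the deposited scale and was set from the scaled values under each other scaling. limma (version 3.58.1, R 4.3.3) fitted a mean for each of the 5 groups, with 9 residual degrees of freedom and a prior that follows the level. edgeR (4.0.16) served for TMM and a count test. Tests were 2-sided, Benjamini-Hochberg adjusted over all tested miRNAs, with a threshold of 0.05, and the code was tested on simulated data. Alternatives were 4 scalings, pseudocounts, filters, prior, count test, replicate block and left-out libraries; geNorm M and SDs of ratios were added after seeing the data. Named were the 4 miRNAs, their opposite strands, listed references and relatives, the 3 nearest patterns of each and the 5 steadiest miRNAs. Members, lists and rules were chosen with earlier results of these data known.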

Additional observations from a re-analysis of the deposited data

Results flagged for a closer look

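The change from day 0 to day 7 differed between the lines for all 4 miRNAs on the deposited scale, as D3 minus B8. The difference in log2 change was 1.99 for miR-191-5p, 2.39 for miR-425-5p, 2.87 for miR-103-3p and 3.45 for miR-107-3p (limma interaction terms, adjusted p of at most 9.02e-05). Over all 521 miRNAs the median of this difference was 2.64, and 74.3% of them were called. Of the 4, only miR-107-3p was still called under median-of-ratios, with 0.93 (adjusted p = 0.0269). The other 3 had -0.54 (miR-191-5p), -0.12 (miR-425-5p) and 0.35 (miR-103-3p) there, with adjusted p of 0.193 to 0.746.

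Ratios, which carry no library factor, differed between the lines in this change for 2 of 6 pairs. That is near the share of all ratios called, 34.2% with miR-191-5p as divisor, 35.8% with miR-425-5p, 28.3% with miR-103-3p and 35.8% with miR-107-3p, so the count is no result about these pairs. The log2 ratio of miR-191-5p to miR-107-3p differed in its change by -1.46 (adjusted p = 0.0122) and that of miR-425-5p to miR-107-3p by -1.06 (adjusted p = 0.0325), as D3 minus B8. In both lines these ratios were lower at day 7 than at day 0, and the fall was the larger one in D3. The call for miR-425-5p over miR-107-3p was lost without D3 day 0 replicate 1 or 2, B8 day 7 replicate 1 or 3, or B8 day 0 replicate 2 (limma adjusted p of 0.0575 to 0.0858). Without D3 day 7 replicate 2 or replicate 3, which leaves 1 library in that group, its difference was -1.08 and -1.03. Without B8 day 7 replicate 2, miR-191-5p over miR-103-3p (-1.39, adjusted p = 0.000203) and miR-425-5p over miR-103-3p (-0.75, adjusted p = 0.0324) were called as well. Single libraries, in groups of at most 3, were not tested for standing apart. Counts of recovered reads differed between libraries of a group by a chi-square per degree of freedom of 19.4 to 38.4 in day 7 B8. It was 2.90 to 7.08 in undifferentiated B8 and 3.139 to 7.772 in undifferentiated D3. In differentiated D3 it was 13.97 at day 7 and 17.47 to 33.86 at day 21. High values were thus not particular to day 7 B8. The part of read number in these values was not tested.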

How the results depend on the processing

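Scaling decided most of the directions of miR-191-5p and miR-425-5p. In D3 at day 7 against day 0 their log2 differences turned to -2.06 and -2.86 with equal totals, -0.53 and -1.34 with equal totals without the miR-10 pair, -0.65 and -1.46 under median-of-ratios, and -0.82 and -1.63 under TMM. In the same order of scalings they were -0.63 and -1.09, -0.43 and -0.89, -0.27 and -0.74, and -0.29 and -0.75 in D3 at day 21 against day 0, and -1.62 and -1.12, -0.92 and -0.44, -0.93 and -0.44, and -0.997 and -0.51 in D3 against B8 at day 7. For the change in D3 minus that in B8 they were -1.42 and -0.99, -0.71 and -0.30, -0.54 and -0.12, and -0.62 and -0.20. For D3 at day 21 against day 7, miR-191-5p, miR-425-5p and miR-107-3p turned to 1.43, 1.77 and 1.44, to 0.11, 0.45 and 0.11, to 0.38, 0.72 and 0.38, and to 0.53, 0.88 and 0.54, and miR-103-3p to 0.87 with equal totals. miR-103-3p turned at day 0 between the lines, to 0.25, 0.25, 0.072 and 0.079, and with equal totals at day 7 (-0.27, with -0.19 for miR-107-3p) and in the difference of changes (-0.53). miR-191-5p in B8 was 0.18 with equal totals without the miR-10 pair.

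The share of all 521 miRNAs called moved with scaling too. Between the lines at day 0 it was 21.7%, 22.3%, 23.4% and 22.3% in that order, with 0 of the 4 in each, against 47.0% and 4 as deposited. At day 7 it was 31.3%, 38.8%, 40.7% and 37.8%, against 75.2%, with 1 of the 4 under equal totals without the miR-10 pair and under median-of-ratios. For the difference of changes it was 30.5%, 30.9%, 32.6% and 31.9%, against 74.3%, with 2, 1, 1 and 1 of the 4. For D3 at day 21 against day 7, 4 of the 4 were called with equal totals, and 0 of 4 and 25.7% of all (39.5% as deposited) without the miR-10 pair. The miRNAs called higher and lower were 367 and 36 in D3 at day 7 and 340 and 53 at day 21 against day 0, 42 and 164 at day 21 against day 7, 114 and 146 in B8, and 5 and 240 (day 0) and 344 and 48 (day 7) between the lines as deposited. Under median-of-ratios they were 188 and 140, 198 and 130, 84 and 54, 140 and 134, 40 and 82, and 127 and 85. The SD of group means moved beyond the spread within groups for miR-103-3p (0.546, 0.923, 0.853 and 0.801), for miR-107-3p (0.845, 1.13, 1.09 and 1.05) and for miR-425-5p with equal totals (1.25).

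With a filter at 50 per 1000000, 293 miRNAs were tested and 85.7%, 88.1%, 89.1% and 100% were called in D3 at day 7 and at day 21 against day 0, between the lines at day 7 and over all groups. A prior without trend left 1 of 2 ratios called in the difference of changes. At a pseudocount of 10 per 1000000 miR-191-5p over miR-107-3p turned to -0.015 between the lines at day 0. edgeR on recovered reads gave 0.028 for miR-425-5p at day 21 against day 7 of D3, where the deposited difference was -0.0057. Apart from scaling and left-out libraries, 250 of 252 results on single members and 190 of 192 on ratios kept direction and call. Leaving out 1 library at a time gave 22.3% to 35.5% of miRNAs and 0 to 1 of the 4 at day 21 against day 7 of D3, the lowest without D3 day 7 replicate 2. Of the 6 ratios it called 0 to 1 there, 0 to 1 between the lines at day 0, 2 to 5 at day 7 and 1 to 4 in the difference of changes. Fits without a D3 day 7 library leave 1 library in that group, so fewer calls there need not mark a smaller difference. The differences that crossed 0 were -0.22 to 0.15 for miR-425-5p and -0.072 to 0.053 for miR-191-5p over miR-107-3p at day 21 against day 7, and, between the lines at day 0, -0.088 to 0.23 for miR-191-5p over miR-107-3p and -0.0057 to 0.30 for miR-425-5p over miR-107-3p. Deviations of same-numbered libraries had r of -0.127 to 0.135 over 26 pairs (2 above 0.1), and of other pairs -0.162 to 0.181 over 52 (6 above 0.1). Deviations within a group of 2 or 3 libraries sum to 0, so these r values constrain each other. They cannot show whether the numbers mark a shared culture or run. With the replicate number as a block 49.7% of miRNAs were called in B8, 78.1%, 76.8% and 39.7% in the 3 D3 comparisons, 46.8% and 74.3% between the lines and 73.5% in the difference of changes, no call of a member changed, and miR-425-5p at day 21 against day 7 was 0.0076. The cause of these shifts was not tested.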
